A study of Mus musculus with 2 samples.

Results

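Heme, the iron-holding ring of hemoglobin and of many enzymes, is made in a chain of reactions that begins and ends in the mitochondrion, and it is broken down to iron, carbon monoxide, biliverdin and bilirubin. The 9 genes described here take part in that chain. Alas1 and Alas2 encode the aminolevulinate synthases of its first step, Alad, Urod, Cpox and Fech encode later enzymes of synthesis, Hmox1 encodes the inducible heme oxygenase that opens the ring, and Blvra and Blvrb encode the biliverdin reductases. Each symbol was looked up in the gene list of both single-cell RNA-Seq libraries and matched 1 of 32285 genes. Their RNA molecules were counted as unique molecular identifiers (UMIs), and a level below, in CPM, is the number of UMIs of a gene per 1000000 UMIs of the cells named.

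The libraries came from the temporomandibular joint (TMJ), the jaw joint, of WT C57BL/6 mice aged 8-10 weeks in the sample labels. Joints of female mice were injected with 10 µL of PBS or of CFA (complete Freund's adjuvant, killed mycobacteria in oil, which inflames a joint) at 5 mg/mL and collected 3 weeks later. Condyle, disc, temporal bone, muscle and ligament of 3 mice per group were digested together after perfusion, cells bearing the immune protein CD45 were reduced with magnetic beads, and 1 library per group was made. Immune cells below are therefore those left after the depletion, no difference between the groups has a replicate check, and intervals (95%, exact Poisson for levels, exact binomial for ratios and shares) cover counting error only.

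Barcodes with 500 genes or more and no more than 10% of their UMIs from mitochondrial genes were kept as cells. These were 5845 of 7671 in the PBS and 4353 of 5709 in the CFA library, with 42983612 and 48368066 UMIs and medians of 4158 and 6996 UMIs per cell. The libraries had 6 kept barcode sequences in common. Erythroid barcodes were taken by a fixed rule: the hemoglobin genes Hba-a1, Hba-a2, Hbb-bs and Hbb-bt made up 20% or more of the UMIs, Alas2 and Slc4a1 together had 3 UMIs or more, and the barcode held 4000 UMIs or more. There were 534 in PBS and 268 in CFA, with medians of 9776.5 and 9182 UMIs. Because Alas2 is part of this rule, its level in erythroid barcodes is a description. All cells were clustered with the 9 genes left out, and those outside the rule took the name that marker genes gave their cluster, as in endothelial-like. Hemoglobin RNA outside erythroid barcodes differed greatly between the libraries: 49.8% of such cells held over 1% hemoglobin UMIs in PBS and 1.74% in CFA. Levels outside erythroid barcodes are for this reason also given for cells with no more than 1% hemoglobin.

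Heme synthesis is set by its first step. ALAS2 serves developing red cells, lies on the X chromosome and is under the control of erythroid factors such as GATA1, while ALAS1 serves all other cells, with high demand in liver, and is held down by heme itself. Erythroblasts make far more heme than other cells, fill with hemoglobin as they mature, and stop dividing before they lose the nucleus. Macrophages that take up dead red cells or are exposed to oxidants raise heme oxygenase, a classical target of the factor NRF2 that the heme sensor BACH1 represses.

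On GRCm38 the genes lie at chr9:106233455-106248654 (Alas1, minus strand), chrX:150547375-150570638 (Alas2, plus), chr4:62509169-62519918 (Alad, minus), chr4:116989965-116994413 (Urod, minus), chr16:58670292-58717636 (Cpox, plus), chr8:75093621-75100589 (Hmox1, plus), chr2:127070665-127097084 (Blvra, plus) and chr7:27447978-27466144 (Blvrb, plus). All 9 are protein-coding. Alas1, Alas2 and Cpox each overlap a counted gene on the opposite strand (4930500F10Rik, Apex2 and Gpr15). RefSeq promoters of 300 bases (build GRCm38.p6, 250 before to 50 after a start) were matched for 7 of the 9 genes. Those of both synthases are shown because these genes encode the first enzyme in red cells and in other cells. Also shown are the first Alad promoter and the Cpox promoter, of the genes that differed most between dividing and nondividing PBS erythroid barcodes. Capitals mark matches, on either strand, to 3 words bound by GATA factors, namely AGATAA, the related word TGATAA, and also AGATAG.
Alas2, chrX:150547167-150547466, plus strand: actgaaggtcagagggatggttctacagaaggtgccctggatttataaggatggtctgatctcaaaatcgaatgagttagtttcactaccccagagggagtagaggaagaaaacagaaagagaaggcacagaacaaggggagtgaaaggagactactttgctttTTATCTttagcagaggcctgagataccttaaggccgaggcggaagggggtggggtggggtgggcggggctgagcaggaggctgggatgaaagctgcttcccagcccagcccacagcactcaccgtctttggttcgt
Cpox, chr16:58669958-58670257, plus strand: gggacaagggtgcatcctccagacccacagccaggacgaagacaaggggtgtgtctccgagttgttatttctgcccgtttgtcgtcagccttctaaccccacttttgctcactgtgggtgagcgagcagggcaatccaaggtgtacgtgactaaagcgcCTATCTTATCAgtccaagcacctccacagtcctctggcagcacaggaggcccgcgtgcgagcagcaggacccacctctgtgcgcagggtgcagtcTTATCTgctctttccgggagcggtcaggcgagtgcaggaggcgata
Alad, chr4:62520014-62520313, minus strand: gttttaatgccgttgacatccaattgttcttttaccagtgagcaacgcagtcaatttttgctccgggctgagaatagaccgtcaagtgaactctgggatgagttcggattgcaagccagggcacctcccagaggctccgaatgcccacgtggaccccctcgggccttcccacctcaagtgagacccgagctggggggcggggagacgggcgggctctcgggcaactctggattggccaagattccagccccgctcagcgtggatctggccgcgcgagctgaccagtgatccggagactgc
Alas1, chr9:106247905-106248204, minus strand: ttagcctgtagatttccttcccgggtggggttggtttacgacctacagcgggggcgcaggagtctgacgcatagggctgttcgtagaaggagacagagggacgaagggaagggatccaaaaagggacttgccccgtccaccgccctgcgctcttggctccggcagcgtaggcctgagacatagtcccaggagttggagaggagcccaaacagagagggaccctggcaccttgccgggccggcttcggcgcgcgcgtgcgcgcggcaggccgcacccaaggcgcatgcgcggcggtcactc
The Alas2 window held 1 match, AGATAA on the opposite strand, at position -86 from the start. The Cpox window held 3, TGATAA at -86, the overlapping AGATAG at -91 and AGATAA at 4, all on the opposite strand. No GATA word was in the Alad, Alas1, Urod, Blvra or Blvrb windows, which says only that these letters are absent there. Of 32851 RefSeq promoters, 25.1% hold at least 1 of the 3 words. The word CCACACCC, in 3.56% of promoters, was in none of the windows, nor was TGACGTCA, in 1.79%. The word TGACNNNGC, in 12.4%, was in the Blvra window alone, at position -49.

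Apart from Blvra, the genes fell into a red cell group and a group of other cells. Among classes with 50 cells or more, Blvra was highest in erythroid-like cells in PBS (50.5) and in macrophage-like cells in CFA (71.7). Alas2, Alad, Urod, Cpox, Fech and Blvrb had their highest levels in erythroid barcodes or in the erythroid-like clusters next to them in both libraries, whereas Alas1 had its lowest level there, among classes with 50 cells or more. In PBS, 72.2% of all Alas2 UMIs lay in erythroid barcodes, which were 9.14% of the cells and held 14.6% of the UMIs of all genes. In CFA it was 86.8%, in 6.16% of the cells with 2772825 of 48368066 UMIs. For Alad, erythroid barcodes held 40.3% of the PBS UMIs and the erythroid-like cells outside the rule a further 36.3%, for Urod 45.3% and 25.7%, for Cpox 43.2% and 38.1% and for Fech 55.6% and 20.6%. Hmox1 and Alas1 lay mostly in few cells in CFA, the 272 osteoclast or Spp1 macrophage-like cells, 6.25% of all cells. These held 73.4% (72.5 to 74.3) of 9323 Hmox1 UMIs and 73.6% (72.5 to 74.6) of 6764 Alas1 UMIs. They were deep and held 8752322 of the 48368066 UMIs of all genes. The heat map of levels by class sets the pattern of both libraries side by side.

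**Figure D1:**
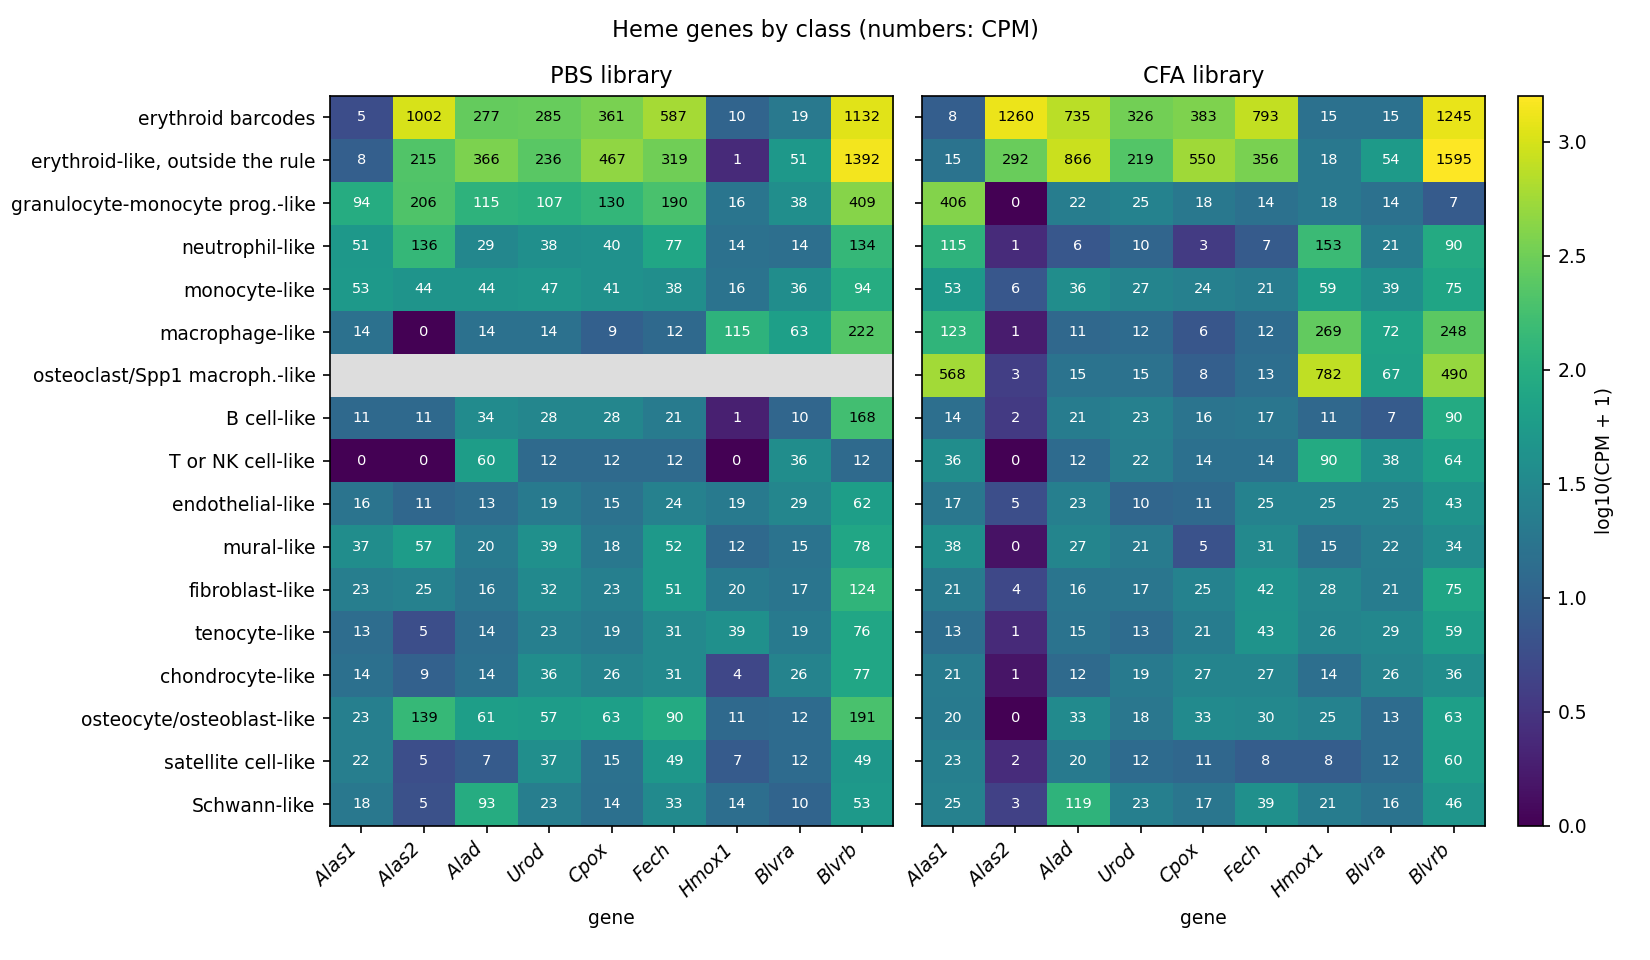
Levels of the 9 genes (columns) in 17 classes (rows) of the PBS (left) and CFA (right) library. Numbers are CPM and colour is log10(CPM + 1), and grey marks a class with 4 cells. Alas2, Alad, Urod, Cpox, Fech and Blvrb are bright in the upper 2 rows of both panels, and Alas1 and Hmox1 are brightest in the CFA osteoclast or Spp1 macrophage-like cells, at 568 and 782.

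Against the other cells with no more than 1% hemoglobin (2667 in PBS and 4014 in CFA), 5 of the 8 genes that the rule does not use were at least 2-fold higher in the erythroid barcodes of both libraries: Alad, Urod, Cpox, Fech and Blvrb. Alas2, which the rule uses, is not counted. Of the erythroid-like cells outside the rule, 571 of 613 in PBS and 57 of 90 in CFA were over 1% hemoglobin. The rest are among these other cells, which are thus not free of erythroid-like cells. Of all genes with 20 UMIs or more, 4.98% of 16357 in PBS and 6.39% of 16873 in CFA were that much higher. The median log2 ratio of the 8 genes was 2.97 in PBS and 3.60 in CFA, against -1.70 and -2.36 over all genes. For Fech, which encodes ferrochelatase and sets iron into the ring, the ratio was 18.0 in PBS and 35.4 in CFA. Urod, the uroporphyrinogen decarboxylase, was 8.02 and 19.8 times higher, and Cpox, the coproporphyrinogen oxidase, 8.94 and 23.9 times. Blvrb, a reductase of biliverdin and flavins that is abundant in red cells, was 8.35 and 7.39 times higher. Alas1 went the other way, at 0.210 of the other cells' level in PBS and 0.0525 in CFA. That level of the other cells was itself 22.0 in PBS and 151 in CFA. In CFA they take in nearly all osteoclast or Spp1 macrophage-like cells. Of all genes, 75.8% in PBS and 77.9% in CFA were at least 2-fold lower in erythroid barcodes, so that a lower level there is the common case. In CFA Hmox1 (0.0711) and Blvra (0.409) were also that low, and in PBS their ratios were 0.559 and 0.81. The Hmox1 level of the other cells was 17.7 in PBS and 208 in CFA.

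The rest of the pathway was counted from fixed lists. Of all genes, 4.98% in PBS and 6.39% in CFA were at least 2-fold higher in erythroid barcodes. Of 15 partners in heme synthesis, 10 were that much higher in both libraries. Among them were the enzymes Uros and Ppox, the mitochondrial carriers Slc25a37 (mitoferrin-1, which brings in iron) and Slc25a38 (glycine), the transporters Abcb10 and Abcb6, Tmem14c, the transferrin receptor Tfrc and the heme-regulated kinase Eif2ak1. Slc25a28, the mitoferrin of other tissues, was at least 2-fold lower in both. All 6 erythroid regulators (Gata1, Klf1, Tal1, Zfpm1, Nfe2 and Epor) and all 10 division genes were at least 2-fold higher in both libraries. Of the genes for handling free heme and iron, 1 of 13 tested was that much higher in PBS (Slc48a1, a heme carrier of the lysosome) and 1 of 14 in CFA (Abcg2, an exporter of heme and porphyrins). At least 2-fold lower were 6 of the 13 in PBS and 11 of the 14 in CFA, beside 75.8% and 77.9% of all genes. Of 12 oxidative stress genes, Nqo1 and Gclm were at least 2-fold higher in both libraries. At least 2-fold lower were 5 in PBS and 6 in CFA, beside the same shares of all genes.

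Across 28 combinations of class and library with 50 cells or more, Alas2 levels ran with those of Fech (Pearson's r = 0.94), Urod (0.93) and Cpox (0.90), on log2(CPM + 10). Alas1 ran with Hmox1 (0.82) and not with Alas2 (-0.28). The genes with the pattern most like Alas2, among 5886 genes, included the red cell membrane genes Slc4a1 (0.98) and Rhd, and also Tspo2 and Rec114. The 5 most like Alas1 were Prdx5 (0.86), Prdx1, Atp6v0c, Pgd and H2-M2. Those most like Hmox1 were Cxcl16 (0.94), Psap, Pla2g7, Trem2 and Cd300c2, and those most like Blvrb were Slc25a37 (0.94), Gclm, Tspan33, Psme3 and Slc22a4. The combinations share their library, its depth and its background RNA, and these values are descriptions. Erythroid barcodes are among them and were taken by a rule on hemoglobin, Alas2 and Slc4a1. The Alas2 values, that with Slc4a1 most of all, therefore draw in part on the rule.

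Outside erythroid cells, Alas2 followed hemoglobin in most PBS classes. PBS neutrophil-like cells had an Alas2 level of 136, granulocyte-monocyte progenitor-like cells 206 and osteocyte or osteoblast-like cells 139 CPM. Per 10000 hemoglobin UMIs, Alas2 stood at 18.3, 21.7 and 17.0 in these classes, 17.1 in mural-like, 19.7 in fibroblast-like and 21.0 in endothelial-like cells, beside 19.9 (19.4 to 20.3) in the erythroid barcodes of the same library. These Alas2 levels are not read as expression by those classes, and whether they are stray red cell RNA was not tested. In the CFA library, where other cells held little hemoglobin, Alas2 was 0.833 CPM in the cells with no more than 1% hemoglobin. That is 37 UMIs among 4014 cells, which take in the erythroid-like cells under this limit. Fech did not keep an even ratio to hemoglobin. It stood at 11.6 per 10000 hemoglobin UMIs in PBS erythroid barcodes, near that in neutrophil-like (10.3) and osteocyte or osteoblast-like cells (11). In endothelial-like cells it was 46.6 and in fibroblast-like cells 40.9.

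**Figure D2:**
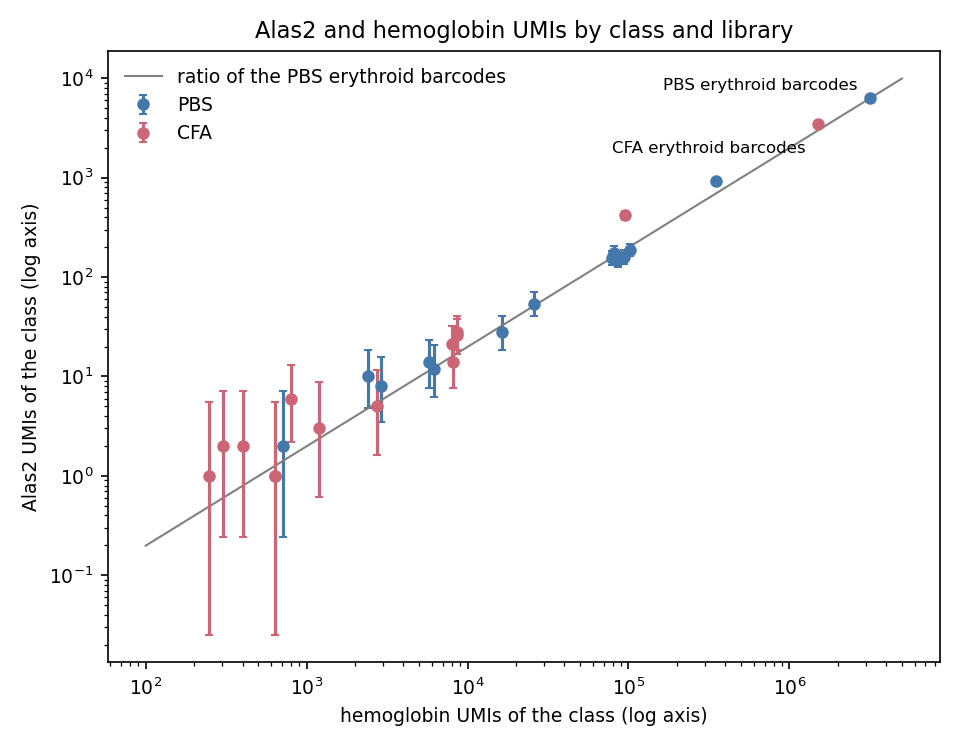
Alas2 UMIs (vertical) against hemoglobin UMIs (horizontal) summed over each class, both on log axes, with 95% Poisson bars. The line is the ratio in the PBS erythroid barcodes, 19.9 Alas2 per 10000 hemoglobin UMIs. Most PBS classes lie near the line, and the erythroid-like cells outside the rule lie above it, at 26.2 in PBS and 43.9 in CFA. Also above it are PBS tenocyte-like (41.7, 10 Alas2 UMIs), CFA Schwann-like (75.1, 6 UMIs) and CFA endothelial-like cells (32.7, 28 UMIs). Other CFA classes lie below it, such as neutrophil-like (18.2, 5 UMIs) and monocyte-like cells (17.2, 14 UMIs).

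The erythroid-like cells that failed the rule (613 in PBS and 90 in CFA) had less Alas2 and Urod and more Alad and Cpox than the erythroid barcodes. They came from 5 clusters, which with the barcodes inside the rule held 349 PBS cells and 1 CFA cell (median 2149.5 UMIs, with glandular Scgb2b12 RNA among its leading genes), 198 and 151, 214 and 122, 169 and 35 (led by Car1, an early red cell gene) and 79 and 24, so that more than one kind of cell is summed here and the first was nearly all PBS. Their Alas2 level was 215 in PBS and 292 in CFA, with 26.2 (24.5 to 27.9) and 43.9 (39.8 to 48.3) Alas2 per 10000 hemoglobin UMIs. Alad was at 366 and 866, Urod at 236 and 219, Cpox at 467 and 549.7, Fech at 319 and 356, Blvrb at 1392 and 1595, and Blvra at 50.5 and 53.9. Next to the edges of the rule the values ran on: PBS barcodes with 15 to 20% hemoglobin (53, outside) and 20 to 25% (61, inside) had Alas2 levels of 405 and 489 and Alad levels of 265 and 282. In CFA these were 657 and 605 for Alas2 and 1378 and 1056 for Alad, in 13 and 10 barcodes.

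Within erythroid barcodes, the level of Alad stood apart between the groups. Alad encodes aminolevulinate dehydratase, the zinc enzyme that lead inhibits and that joins a pair of aminolevulinate molecules. It was at 277 CPM (264 to 290.4, 1735 UMIs) in PBS and at 735 (703 to 767, 2037 UMIs) in CFA, a CFA to PBS ratio of 2.65 (2.49 to 2.83). Per barcode, the median Alad level was 154 in PBS, with a highest value of 1592 and 196 of 534 barcodes at 0. In CFA it was 424, with a highest value of 3317 and 60 of 268 at 0. The distributions overlapped, with the CFA barcodes higher on the whole. Of 11040 genes tested in erythroid barcodes, 3.56% were at least 2-fold higher in CFA and 27.1% at least 2-fold lower, and Alad was the only 1 of the 9 genes past 2-fold in either direction. The median log2 ratio of the 9 genes was 0.33 and that of all genes -0.43.

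**Figure D3:**
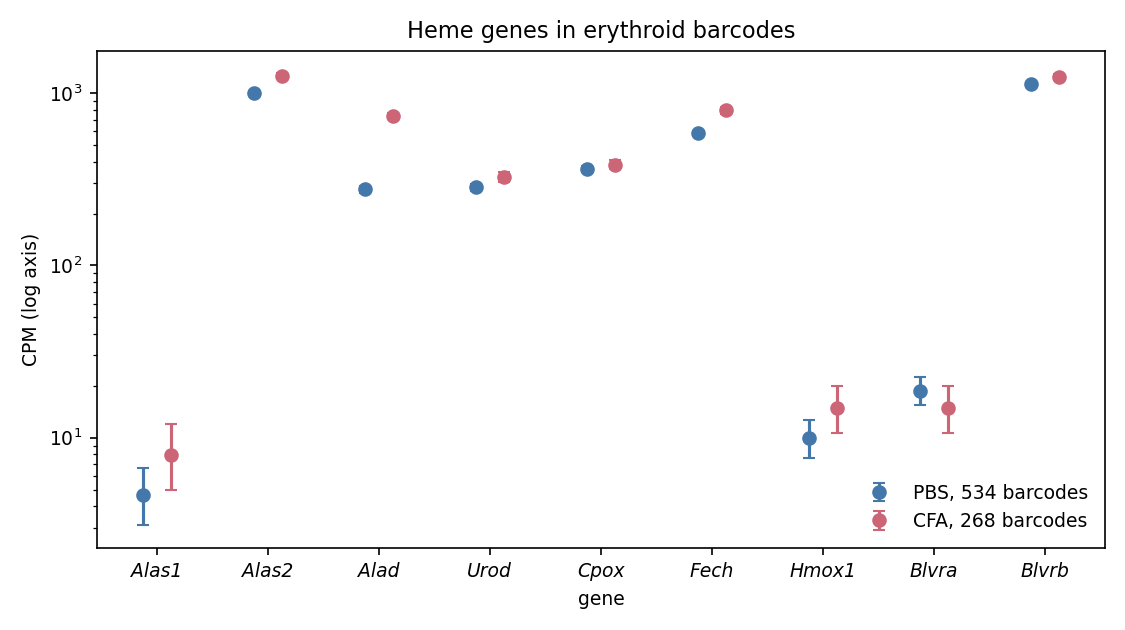
CPM (log axis) of the 9 genes in the PBS (blue) and CFA (red) erythroid barcodes, with 95% Poisson intervals that are hidden by the points where narrow. Alad shows the widest gap between the libraries of the genes with over 100 CPM, 277 against 735, and Cpox and Urod show narrow ones.

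The other synthesis genes differed less. Alas2 was at 1002 (977 to 1027, 6274 UMIs) in PBS and 1259.7 (1218 to 1302, 3493 UMIs) in CFA, with per-barcode medians of 1008 and 1316 and a ratio of 1.26 (1.21 to 1.31). Fech was at 587 (568 to 606) and 793 (761 to 827), with a ratio of 1.35 (1.28 to 1.43). Urod was at 285 (271 to 298) and 326 (305 to 348), with a ratio of 1.15 (1.06 to 1.24). The Cpox levels, 361 (347 to 377) and 383 (360.3 to 407), gave a ratio of 1.06, and its interval of 0.985 to 1.14 takes in 1. The Alad ratio ran from 1.73 to 2.99 over the settings tried, and its interval lay above 1 in each that gives one. The ratio of Alas2 ran from 0.820 to 1.36, that of Fech from 0.882 to 1.46, that of Urod from 0.747 to 1.24 and that of Cpox from 0.691 to 1.16, and each was below 1 when taken per UMI of the red cell genes Slc4a1, Rhag, Ermap and Car2.

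Alas1 and Hmox1 were near the floor in erythroid barcodes. Alas1 was at 4.63 (3.1 to 6.65, 29 UMIs) in PBS and 7.93 (4.97 to 12, 22 UMIs) in CFA, and 509 of 534 and 258 of 268 barcodes held none. Hmox1 was at 9.9 (7.59 to 12.7, 62 UMIs) and 14.8 (10.6 to 20.1, 41 UMIs), and 511 and 254 barcodes held none. A single barcode carried 35 of the 62 PBS UMIs of Hmox1, and another carried 24 of the 41 in CFA, together with 10 of the 22 Alas1 UMIs. That CFA barcode held 36550 UMIs, 28 of them from the immune gene Ptprc and 11 from the macrophage gene C1qa. Of the reductases, Blvra was at 18.7 (15.5 to 22.4) and 14.8 (10.6 to 20.1). Blvrb was at 1132 (1106 to 1159) and 1245 (1204 to 1287), a ratio of 1.10 (1.06 to 1.15).

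RNA of other cells moved with the groups in these barcodes. Hemoglobin was 50.5% of UMIs in PBS and 54.2% in CFA. The summed level of 8 fibroblast markers was 2999 in PBS and 370.02 in CFA, that of 8 neutrophil markers 2349 and 598, and that of 7 macrophage markers 24.4 and 99.2, and that of 7 markers of osteoclast or Spp1 macrophages 113 and 88.4, of which Mmp12 and Dcstamp were at 0 in PBS. No marker of the fibroblast, neutrophil and macrophage lists was at 0 in either library. Their part in the ratios above was not tested. Without hemoglobin UMIs in the total, Alad was at 559 in PBS and 1606 in CFA, a ratio of 2.87, and Alas2 at 2022 and 2753, a ratio of 1.36.

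Among the partners in erythroid barcodes, 0 of 15 were at least 2-fold lower in CFA, beside 27.1% of all genes, with a median log2 ratio of 0.45. Higher by that much was 1 of 15, beside 3.56% of all genes. The 1 was Tfrc, the receptor that takes up transferrin iron, at 349 in PBS and 795 in CFA, a ratio of 2.28 (2.15 to 2.42). Slc25a37 was at 728 and 1273, a ratio of 1.75 (1.67 to 1.83). Uros, the uroporphyrinogen synthase, was at 46.6 and 86.2 (1.85), and Ppox, between CPOX and ferrochelatase, at 125 and 129 (1.04). No regulator of 6 passed 2-fold: Gata1 was at a ratio of 1.08, Klf1 at 1.31, Tal1 at 1.39, Nfe2 at 1.78 and Epor at 1.89. Of the 10 division genes 0 passed 2-fold, with Mki67 at 1.51 and Cenpe at 1.99.

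Hemoglobin content grows as red cells mature. Of the synthesis genes, Alas2 alone rose in both libraries through the hemoglobin ranges up to 80%. In PBS, Alas2 was at 169.6 in erythroid-like cells with under 20% hemoglobin (414 cells), at 619.5 in erythroid barcodes with 20 to 40% (180), at 971 with 40 to 60% (116) and at 1427 with 60 to 80% (187). In CFA the levels were 275, 816, 1219 and 1549, in 85, 46, 70 and 147 cells. Because the hemoglobin share and Alas2 enter the rule, this order is a description. Fech ran the same way in PBS, from 310.4 over 436 and 615 to 763, whereas in CFA it was 345, 579.8, 944 and 845. In PBS barcodes with 80 to 100% hemoglobin (51), Alas2 was at 1398 and Fech at 602, no higher than in the range before, with Alad at 46.5 and Cpox at 57.0. CFA held 5 such barcodes. Urod lay between 226 and 352 CPM in PBS and between 215 and 381 CPM in CFA.

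In CPM, Cpox and Alad ran the other way at the high end. Levels by hemoglobin range, here and above, count hemoglobin UMIs in the total. A larger hemoglobin share therefore lowers the CPM of every other gene. In PBS, hemoglobin was 50.1% of UMIs in the 40 to 60% range and 71.7% in the 60 to 80% range. In CFA it was 49.9% and 70.7%. Its part in the lower levels was not tested. PBS Cpox was at 497, 399.5, 539.8 and 266 over the 4 ranges, and CFA Cpox at 549.7, 554, 559 and 177. PBS Alad was at 387, 299, 399 and 223, and CFA Alad at 872, 996, 1234 and 285. The CFA to PBS ratio of Alad was 2.25 (2.09 to 2.43) under 20%, 3.33 (3.01 to 3.69) at 20 to 40%, 3.10 (2.78 to 3.45) at 40 to 60% and 1.28 (1.11 to 1.48) at 60 to 80% hemoglobin. At 60 to 80% the Cpox ratio was 0.668 (0.567 to 0.785). Blvra, the reductase of most tissues, was at 54.8, 31.4, 19.9 and 5.16 in PBS and 54.5, 40, 13.1 and 0.822 in CFA. Blvrb was at 1467, 1158, 1290.4 and 1036 in PBS and 1604, 1404, 1474 and 1026 in CFA.

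**Figure D4:**
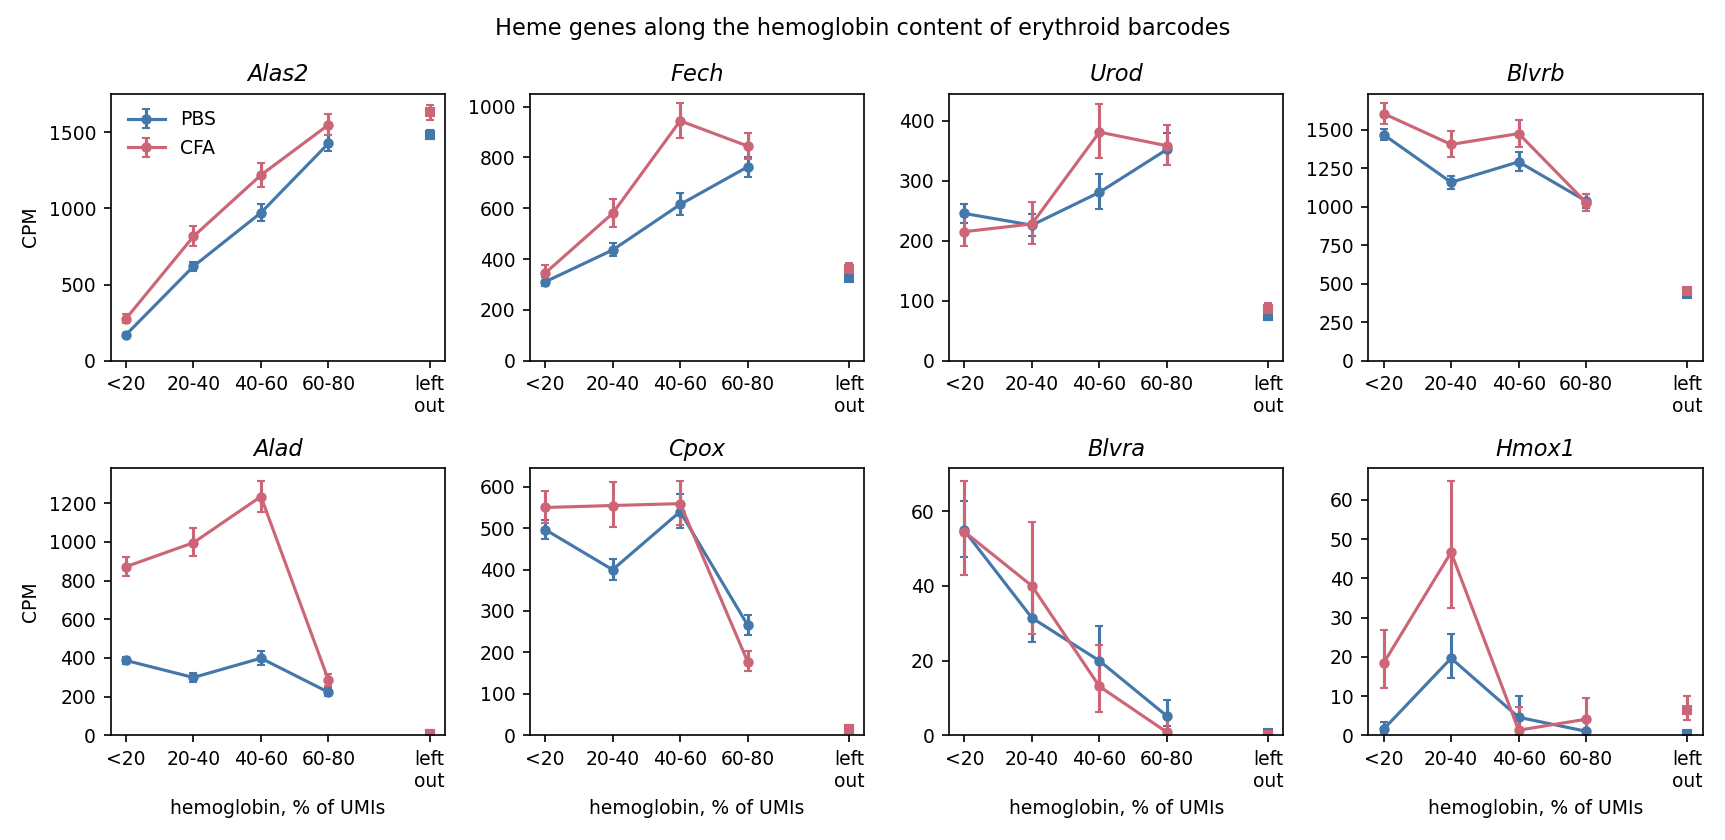
CPM (vertical, linear axes from 0) of 8 genes by the hemoglobin share of the barcode (horizontal, % of UMIs), PBS blue and CFA red, with 95% Poisson bars. Points under 20% are erythroid-like cells outside the rule, and squares at the right are barcodes with under 500 genes and 20% hemoglobin or more, which were left out as cells. The 80 to 100% range is not drawn. The CFA points of Alad lie above the PBS points up to 60% hemoglobin, at 996 against 299 in the 20 to 40% range, and close to them after that.

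Levels also differed with division, though hemoglobin did not in PBS, where it was 48.9% of the UMIs of dividing and 48.0% of those of nondividing barcodes. In CFA it was 51.9% in dividing barcodes and is not given for the 15 nondividing ones. The CFA levels below are not matched for hemoglobin. Barcodes with 3 or more UMIs of the 10 division genes (419 in PBS and 217 in CFA) were compared with those that had none (32 and 15). In PBS, Alad was at 346 in dividing and 9.34 in nondividing barcodes, a ratio of 37.1 (14.4 to 136), and Cpox at 446 and 16.3, a ratio of 27.3 (13.2 to 67.9). Urod (319 and 84.1), Fech (649 and 229) and Blvrb (1299 and 294) had ratios of 3.80, 2.84 and 4.42. Alas2 was nearly level, at 992 and 880.4. In CFA, nondividing barcodes held 1 Alad UMI, a level of 6.37 beside 872 in dividing ones, with a ratio of 137 (24.6 to 5413), and Cpox was at 436 and 108. Alas2 there was at 1234 and 1357. Within dividing barcodes the CFA to PBS ratio was 2.52 (2.36 to 2.69) for Alad, 1.30 for Fech, 1.24 for Alas2, 1.07 for Urod and 0.978 for Cpox. In barcodes with 1 to 2 division UMIs (83 and 36), Alad was at 34.5 and 140, a ratio of 4.05 (2.53 to 6.56), and Cpox at 72.3 and 152, with an interval of the ratio of 1.43 to 3.07. In nondividing barcodes the ratio was 6.62 (2.61 to 18.9) for Cpox, 2.65 (1.62 to 4.35) for Urod and 2.20 (1.61 to 2.99) for Fech, so that these ratios differed between the division groups. Nondividing CFA barcodes held a larger hemoglobin share than nondividing PBS ones. Without hemoglobin UMIs in the total, the 3 nondividing ratios were 9.29, 3.72 and 3.08.

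In the CFA library the osteoclast or Spp1 macrophage-like cells, named from the osteoclast genes Acp5, Dcstamp and Atp6v0d2 and the macrophage genes Mmp12, Spp1 and Gpnmb, had the highest levels of Alas1, at 568 (553 to 584, 4975 UMIs), and Hmox1, at 782 (764 to 801, 6845 UMIs). Both genes were found together in 243 of the 272 cells, Alas1 alone in 11, Hmox1 alone in 15 and neither in 3. The osteoclast protease gene Ctsk was not among the markers that passed in them. The median cell had an Alas1 level of 429 and a Hmox1 level of 466, and the highest Hmox1 level was 7305. These cells were deep, with a median of 30333.5 UMIs. PBS held 4 such cells, with 23 Hmox1 UMIs, a level of 1021 (647 to 1532), and 0 Alas1 UMIs, which allows an Alas1 level of up to 133.

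Against macrophage-like cells of the same library (265, median 13150 UMIs), the ratio was 4.62 (4.21 to 5.07) for Alas1, whose level there was 123, and 2.91 (2.73 to 3.10) for Hmox1, whose level was 269. Blvrb was at 490.2 and 248, a ratio of 1.98 (1.85 to 2.12), and Blvra at 66.8 and 71.7, a ratio of 0.932. Of 11308 genes, 6.04% were at least 2-fold higher and 13.5% at least 2-fold lower in the osteoclast or Spp1 macrophage-like cells. Of the 9 genes 3 were higher (Alas1, Hmox1 and Alas2, the last with 26 UMIs against 3) and 0 lower, with a median log2 ratio of 0.46 against -0.27 for all genes. The remaining synthesis genes stayed low, with Alad at 15.4, Urod at 15.1, Fech at 13.5 and Cpox at 8.34. Against monocyte-like cells, the ratios were 10.8 (8.98 to 13.1) for Alas1, 13.1 (11.1 to 15.7) for Hmox1 and 6.5 for Blvrb, where 12.7% of 11235 genes were at least 2-fold higher and 27.3% lower.

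In this comparison with macrophage-like cells, 5 of 12 oxidative stress genes were at least 2-fold higher, beside 6.04% of all genes. These were Prdx1, a peroxiredoxin (6.30), Srxn1, a sulfiredoxin (3.07), Gclc and Gclm, the subunits of the enzyme that starts glutathione synthesis (2.42 and 2.33), and Nqo1, a quinone reductase (2.34). Bach1 was the 1 lower gene, at 56.6 against 136, and Nfe2l2, which encodes NRF2, was at 764 against 923. Of 14 genes for heme and iron handling tested, 3 were higher: Slc48a1 at 156 against 62.4, and the ferritin chains Fth1 (70759 against 32949) and Ftl1 (11890.4 against 5225). The 4 lower genes were Cd163, the hemoglobin scavenger receptor, Slc40a1, the iron exporter ferroportin, Spic and Nupr1. Of 13 synthesis partners tested, 0 were higher and 1, Ppox, was lower.

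Free RNA of these cells can reach other CFA droplets, and both genes were therefore set against Mmp12, with 30427 UMIs in these cells, and Acp5, with 4045. Hmox1 stood at 22.5 UMIs per 100 Mmp12 UMIs in the osteoclast or Spp1 macrophage-like cells, 175 in macrophage-like, 67.3 in neutrophil-like and 21.0 in unnamed CFA cells. For Alas1 the values were 16.4, 80.3, 50.6 and 23.6. Per 100 Acp5 UMIs, Hmox1 stood at 169 in the osteoclast or Spp1 macrophage-like and 172 in macrophage-like cells, and Alas1 at 123 and 78.7. The markers thus gave different orders, and the part of free RNA in the levels of other classes was not tested. The PBS library had no Mmp12 UMI in any of the classes compared.

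**Figure D5:**
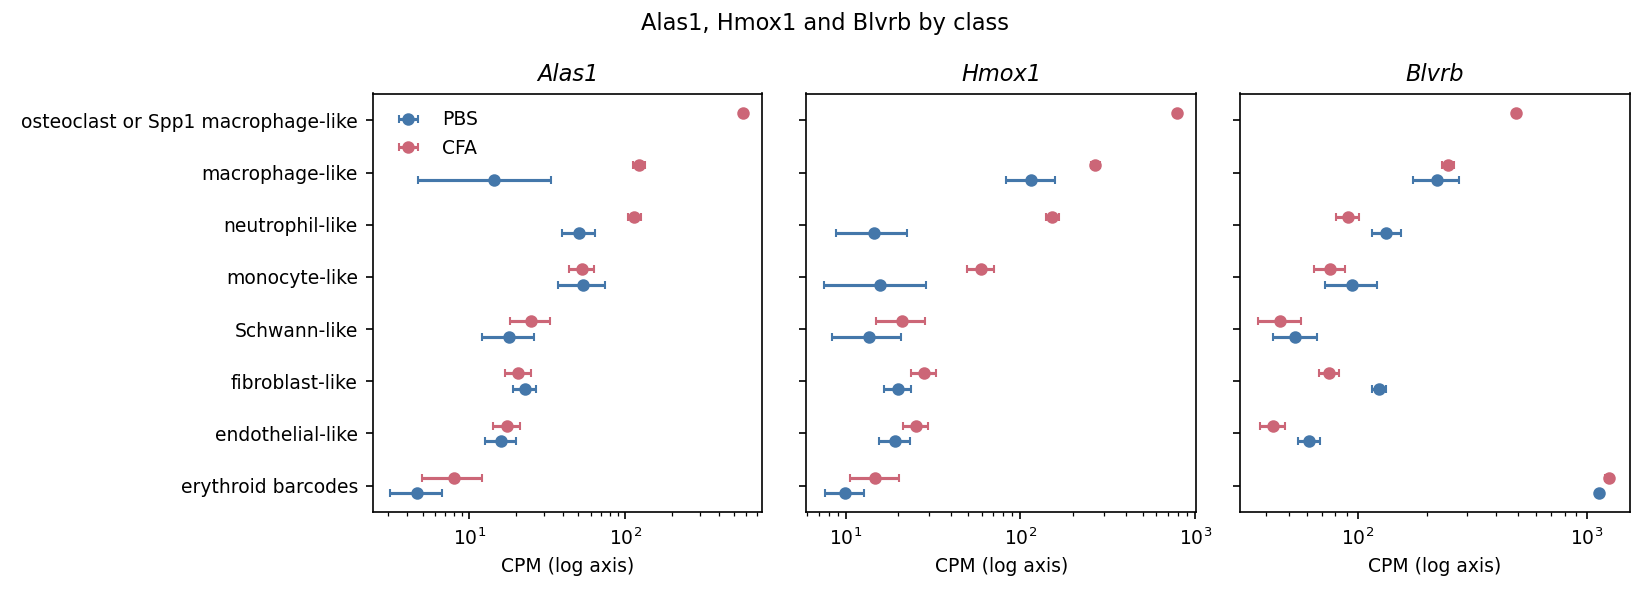
CPM (horizontal, log axes) of Alas1, Hmox1 and Blvrb in 8 classes (vertical), PBS blue and CFA red, with 95% Poisson bars. CFA osteoclast or Spp1 macrophage-like cells are farthest right for Alas1 (568) and Hmox1 (782), erythroid barcodes are farthest right for Blvrb (1132 and 1245) and farthest left for Alas1, and the neutrophil-like Hmox1 levels of the libraries lie far apart, at 14.4 and 153.

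The order of Hmox1 levels in CFA was osteoclast or Spp1 macrophage-like, macrophage-like, neutrophil-like (153), T or NK cell-like (90.2, 58 cells) and monocyte-like cells (59.5), and the intervals overlapped for T or NK cell-like and monocyte-like cells and among the classes from fibroblast-like (28.1) downward. The T or NK cell-like cells also held the macrophage gene C1qa at 166 and the neutrophil gene S100a8 at 1945 CPM. In monocyte-like cells these were at 7.72 and 1155. The part of such RNA in the T or NK cell-like Hmox1 level was not tested. In PBS, among classes with 50 cells or more, tenocyte-like cells led, at 39.1 (31 to 48.6), followed by fibroblast-like (19.9) and endothelial-like (19.1) cells with overlapping intervals. Macrophage-like cells were few in PBS (23) and had a Hmox1 level of 115 (40 UMIs), which gives a CFA to PBS ratio of 2.33 (1.70 to 3.28). It was 1.22 with cells over 1% hemoglobin left out before clustering and 4.10 with 1000 genes or more per cell. The summed level of 8 neutrophil markers in macrophage-like cells was 21579 in PBS and 3925 in CFA, and its part in the ratio was not tested. In that class 12.8% of 9572 genes were at least 2-fold higher in CFA and 12.5% lower, with Alas1 among the higher, at 14.4 (5 UMIs) and 123. For neutrophil-like cells with no more than 1% hemoglobin (72 and 357), Hmox1 was at 17.2 and 153, a ratio of 8.89 (5.15 to 16.8), and Alas1 at 83.5 and 115, a ratio of 1.38 (1.05 to 1.83). In all neutrophil-like cells the summed level of 7 macrophage markers was 77.9 in PBS and 836 in CFA, with none at 0, and that of 7 markers of osteoclast or Spp1 macrophages 139 and 797, with Dcstamp and Mmp12 at 0 in PBS. Their part in the Hmox1 ratio was not tested. Over all neutrophil-like cells 9.86% of genes were at least 2-fold higher in CFA and 22.7% lower. Different clusters held most of this class in each library, the PBS cells mainly clusters 19 and 38 and the CFA cells clusters 14 and 17. Within cluster 14 the Hmox1 level was 39.3 in PBS and 196 in CFA, and within cluster 17 it was 3.75 and 132. Monocyte-like cells had 15.7 and 59.5 (28 and 119 cells), a ratio of 3.80 (2 to 8.11), while their Alas1 levels were 53.3 and 52.7.

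Alas1 was highest in PBS in granulocyte-monocyte progenitor-like cells, at 93.8 (74.4 to 117, 80 UMIs). Progenitors of this kind make myeloperoxidase, itself a heme enzyme. In CFA the 14 cells of this class had an Alas1 level of 406 (334 to 488). Nearly all PBS cells of the class (226 of 229) and none in CFA held over 1% hemoglobin, so the libraries cannot be compared within it. In cells with no more than 1% hemoglobin, the Alas1 ratio of CFA to PBS was 1.09 (0.798 to 1.49) in endothelial-like, 0.89 (0.685 to 1.15) in fibroblast-like, 0.963 (0.698 to 1.33) in mural-like and 1.01 (0.532 to 1.89) in tenocyte-like cells, and each interval takes in 1.

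Schwann-like cells, the myelin-forming cells of nerve, carried Alad above all other classes outside the erythroid and progenitor groups. Their Alad level was 93.4 (78.8 to 109.9) in PBS and 119 (104 to 135) in CFA, 7.26 (5.38 to 9.9) and 5.19 (4.17 to 6.48) times that of endothelial-like cells. Hemoglobin was 0.187% and 0.042% of their UMIs. The larger of their clusters had 109 in PBS and 166 in CFA and the smaller 24.5 and 38.2. Their Urod (22.6 and 23.1) and Cpox (14.2 and 16.8) levels were like those of endothelial-like cells in PBS (19.5 and 15.1). For cells with no more than 1% hemoglobin, the Schwann-like Alad ratio of CFA to PBS was 1.26 (1.02 to 1.57).

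Blvrb had its highest level outside red cells in CFA in the osteoclast or Spp1 macrophage-like cells. These held 33.2% of the Blvrb UMIs of that library, and 8752322 of its 48368066 UMIs of all genes. Its erythroid barcodes held 26.7% of the Blvrb UMIs. Its erythroid-like cells outside the rule held a further 2277 of 12916. In PBS, erythroid barcodes held 42.6% of the Blvrb UMIs and erythroid-like cells outside the rule 35.7%. Blvra was highest in CFA in macrophage-like (71.7, 63.7 to 80.4) and osteoclast or Spp1 macrophage-like cells (66.8), whose intervals overlapped, and in PBS, among classes with 50 cells or more, in erythroid-like cells (50.5, 44 to 57.8). The 23 PBS macrophage-like cells had a Blvra level of 63.4 (22 UMIs). Endothelial-like cells had Blvra levels of 28.7 and 25.1.

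In the connective tissue and vessel classes the 9 genes were low, and the values below are for cells with no more than 1% hemoglobin. Urod was lower in CFA in endothelial-like (19.4 and 10, ratio 0.516, 0.364 to 0.727), fibroblast-like (26.2 and 17.2, 0.658, 0.501 to 0.859), mural-like (0.645, 0.431 to 0.958), chondrocyte-like (0.58, 0.367 to 0.911) and tenocyte-like cells (0.539, 0.295 to 0.944), by more than counting error, and at a ratio of 1.04 in Schwann-like cells. The tenocyte-like ratio over all hemoglobin levels was 1.30 with cells named singly in place of by cluster. Alad was higher in CFA in endothelial-like (12.6 and 22.5, 1.79, 1.30 to 2.48), fibroblast-like (10.7 and 16.5, 1.55, 1.10 to 2.18) and mural-like cells (13.8 and 27.4, 1.99, 1.25 to 3.26). Blvrb was lower in fibroblast-like (104 and 76.1, 0.73) and endothelial-like cells (0.747). With all cells of a class, 4.84% of genes were at least 2-fold higher and 6.49% lower in endothelial-like cells, 4.98% and 7.24% in fibroblast-like and 3.35% and 8.02% in mural-like cells. Of the 9 genes, 0 were higher in these 3 classes and Alas2 was lower in each, as were Cpox and Blvrb in mural-like cells, which in PBS were mostly a cluster with neutrophil genes (Ngp and Ltf) among its leading genes. Without that cluster the mural-like Blvrb ratio over all cells was 0.892 (0.630 to 1.26) in place of 0.438, and in cells with no more than 1% hemoglobin the ratio was 0.661 for Urod and 2.17 for Alad. A PBS-only cluster named fibroblast-like (95 cells) was led by the immune genes Il1rn, Ccl5, Ccl4 and Tnf. None of its cells is among the fibroblast-like cells with no more than 1% hemoglobin, and over all cells the fibroblast-like ratio was 0.697 without it and 0.607 with it for Blvrb, and 1.40 (1.01 to 1.95) without it for Alad, whose interval with it takes in 1.

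In the classes left, few of the 9 genes passed a 2-fold difference between the libraries with all cells taken. In Schwann-like cells 0 of 8 tested did, while 9.27% of 10955 genes were that much higher and 3% that much lower in CFA. In B cell-like cells it was 0 of 6, beside 4.07% and 4.3% of 8484 genes, and in tenocyte-like cells 0 of 8, beside 4.12% and 5.5% of 10622. In chondrocyte-like cells Hmox1 was higher and Blvrb lower of 8 tested, beside 5.95% and 6.88% of 9898 genes. In satellite cell-like cells, the stem cells of muscle, Urod and Fech were lower of 4 tested and 0 were higher, beside 7.29% and 9.67% of 6636.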

How the data were processed

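The authors aligned reads with Cell Ranger 7.0.1 to GRCm38 (mm10) and deposited UMI counts per gene and barcode, without normalization. The kit and the digestion enzymes are described differently in the labels and the methods (version 2 against 3.1, and collagenase I at 3 mg/mL against collagenase P at 1 mg/mL). The deposited counts still held barcodes outside the study's cell limits, and the lowest barcode total was 500 in PBS and 501 in CFA. The cell numbers the study states differ from those kept here, and its number for CFA is above the barcodes analysed. The deposited libraries held 51146169 (PBS) and 53517206 (CFA) UMIs and shared 10 barcode sequences.

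Following the methods, cells were normalized with SCTransform and integrated on 3000 genes, and clustered on 200 principal components at resolution 1.5, here with Seurat 5.3.0 (SeuratObject 5.2.0, sctransform 0.4.2, Matrix 1.6.5, R 4.3.3, seed 1). A marker counted for a cluster when 25% or more of its cells held it at a 2-fold higher level, with 10 CPM (UMIs per 1000000) added. Of 49 clusters, 37 were named under 17 names. The 12 others stayed unnamed for having under 3 markers, leading genes of another class, few UMIs or hemoglobin as the only markers, the last added after a cluster led by gland genes had been seen. They held 1370 PBS and 565 CFA cells. Scrublet (scanpy 1.11.5) marked 1 PBS and 2 CFA cells as doublets, too few for the caller to have worked, and removal of the top 5% of scores was an alternative.

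UMIs were summed by class and library in Python 3.11.15 (numpy 2.4.6, scipy 1.17.1, pandas 2.3.3, matplotlib 3.10.9). A gene was tested for a 2-fold difference when it had 20 UMIs over both groups. A count of 0 was given an upper limit of 3 counts. No test between groups was made. In simulated erythroid counts over 11040 genes with 200 changed 4-fold, 99.5% of these and 0.683% of the others were called, 96.0% of intervals covered the true ratio, and 12 of 12 simulated clusters over 32285 genes were named correctly. The simulated counts were Poisson, as the intervals assume, and each simulated cluster had the markers of a single class raised, without mixed cells. These values check the steps and not the naming of real clusters. Positions came from GENCODE, promoters from RefSeq. Genes named are the 9, every gene of the lists, and for Alas1, Alas2, Hmox1 and Blvrb the 5 genes most like each, and some of these are not reported here. The genes and lists were chosen with earlier results of these data known. Genes of single high barcodes, marker genes and leading genes of clusters were named after their values were seen.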

Additional observations from a re-analysis of the deposited data

Results flagged for a closer look

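The CFA to PBS ratio of 5 genes pointed one way in erythroid barcodes and the other way in another class, and in no case was the difference tested. Alas2 was at 1.26 in erythroid barcodes and 0.00790 in mural-like cells, where the CFA value is 1 UMI. Alad was at 2.65 in erythroid barcodes and 0.221 in neutrophil-like cells. Urod was at 1.15 and 0.265 in the same pair, and Fech at 1.35 and 0.0946. Blvrb was at 1.10 in erythroid barcodes and 0.438 in mural-like cells. Most PBS mural-like cells (309) belonged to a cluster with the neutrophil genes Ngp and Ltf among its leading genes, and without it the mural-like ratio was 0.892 for Blvrb and 0.178 for Alas2. Beside the lower ratios, 296 of 487 mural-like and 256 of 328 neutrophil-like PBS cells held over 1% hemoglobin, against 1 of 226 and 1 of 358 in CFA. In neutrophil-like cells with no more than 1% hemoglobin, the Alad ratio was 0.965 and that of Urod 0.768.

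Barcodes with under 500 genes and 20% hemoglobin or more, which were left out as cells, held red cell RNA of their own. There were 964 in PBS and 413 in CFA, with a median of 7442.5 and 7470 UMIs and with 92.7% and 91.9% hemoglobin. Their Alas2 level was 1483 CPM (UMIs per 1000000) in PBS and 1630.0 in CFA, that is 16.0 and 17.7 per 10000 hemoglobin UMIs. Their Alad level was 5.37 and 8.90, beside 277 and 735 in the erythroid barcodes. Cpox was at 15.5 and 15.7, Urod at 74.6 and 85.4, Fech at 327 and 362, and Blvrb at 432 and 451.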

How the results depend on the processing

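No paired analysis was possible because there is 1 library per group and the results come from no test. Over all settings, 91 of the values that answer a comparison moved by less than their counting interval, 47 moved by more and 5, whose interval had lain to 1 side of 1, changed direction. Of the 47, 7 crossed 1 from an interval that takes in 1 (Cpox and Hmox1). Of the other ratios, 534 moved by less, 97 by more and 12 changed direction. The cause was not tested in any of these.

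In erythroid barcodes, the Alas2 ratio of CFA to PBS was 1.20 with Slc4a1 alone in the rule, 1.13 at 50% hemoglobin or more and 1.36 without hemoglobin UMIs. That of Alad was 2.99 with 1000 genes or more, 2.34 with Slc4a1 alone, 2.07 at 50% hemoglobin, 2.87 without hemoglobin UMIs and 2.44 as a mean over cells. That of Fech was 1.44, 1.21, 1.22 and 1.46 under the first 4 of these. That of Cpox was 1.16, 0.929, 0.867, 1.15 and 0.971 under all 5, and that of Blvrb 1.17, 0.985, 1.05, 1.19 and 1.05. Urod was at 1.02 with Slc4a1 alone, and Blvra at 0.339 at 50% hemoglobin. Hmox1 was at 5.97 with Slc4a1 alone, 3.61 without the top doublet scores and 0.961 as a mean over cells. The genes at least 2-fold lower in CFA numbered 1947 with Slc4a1 alone and 1081 at 50% hemoglobin, against 2987. Alternatives chosen after seeing the data were dividing barcodes alone (Alas1 3.16, Cpox 0.978, Hmox1 4.56, Blvrb 1.04) and UMIs per UMI of 4 red cell genes (Alas2 0.820, Alad 1.73, Urod 0.747, Cpox 0.691, Fech 0.882, Hmox1 0.974, Blvra 0.516, Blvrb 0.717). The last, leaving out the barcode with the most UMIs of the gene, gave 1.05 for Alas1 and 1.44 for Hmox1.

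The macrophage-like Hmox1 ratio was 3.79 at 20% mitochondrial UMIs, 4.10 with 1000 genes or more, 3.61 at resolution 0.8, 1.22 with cells over 1% hemoglobin left out before clustering, 1.64 with each cell classed on its own and 1.69 as a mean over cells. The osteoclast or Spp1 macrophage-like to macrophage-like ratio of Alas1 was 5.16 with hemoglobin-rich cells left out, 2.98 with each cell classed on its own and 5.20 as a mean over cells, and with each cell on its own those of Hmox1 and Blvrb were 2.17 and 1.72. No cluster took that name at 20% mitochondrial UMIs, with 1000 genes or more, at resolution 0.8 or with log-normalized counts, so those settings gave no value.

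Ratios that changed direction in other classes were Blvrb in neutrophil-like cells (1.21 with hemoglobin-rich cells left out before clustering, 2.53 with classes unchanged), Alas2 in fibroblast-like cells (1.23 with 1000 genes), Fech in fibroblast-like cells (1.04 with 1000 genes, 1.02 with hemoglobin-rich cells left out), Fech in mural-like cells (1.14, 1.08 at resolution 0.8, 1.10 and 1.09 with such cells left out before and after clustering, and 1.08 without the cluster with neutrophil genes, chosen after seeing the data), Hmox1 in chondrocyte-like cells (0.610, log-normalized) and Urod in tenocyte-like cells (1.30, each cell on its own). Depth limits Alas1, Hmox1 and Blvra in erythroid barcodes and all 9 genes in PBS macrophage-like cells.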
